A study of Drosophila melanogaster with 4 samples.

Results

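The genes described here encode subunits of the proteasome of Drosophila melanogaster, measured in 4 samples of embryo cell culture. They were chosen by name: every probe set whose annotated symbol begins with Prosalpha, Prosbeta, Rpn or Rpt, the last 2 followed by a digit. The rule found 42 of 14010 probe sets on the array. Of these, 41 name 1 gene and 1 names a pair of genes, so that 39 genes have a probe set of their own. They divide into 12 canonical subunits of the 20S core, 14 canonical subunits of the 19S particle and 13 paralogs, whose symbols end in T or R, with or without a digit. Of 32 canonical subunits in the list of subunits used here, 6 had no probe set naming them alone (Prosalpha1, Prosbeta1, Rpt1, Rpt6, Rpn9 and Rpn10) and were not analysed here as single genes.

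Total RNA was hybridised to 1-colour Affymetrix arrays, 1 array for each sample. All 4 samples are negative fractions: cells that stayed behind when fluorescence-activated sorting withdrew a labelled class of neurons. The Gad1-negative samples, a and b, remained after neurons with red fluorescent protein (dsRed1) had been withdrawn, the protein being driven by a 2.1 kb fragment of the promoter of Gad1, whose enzyme makes GABA. The Cha-negative samples, a and b, remained after cholinergic neurons marked with GFP had been withdrawn from cultures 3 to 5 days old. No culture age is given for the Gad1 sort and no driver for the GFP, and a sort driven by a promoter fragment takes only the cells in which the fragment is active. Nothing in the labels says that a and b were separate cultures, so every p-value below measures the spread between these samples, which may be technical. RNA of a mixed fraction was measured, so a change in the share of a cell type and a change in RNA per cell cannot be told apart.

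The proteasome is the protease that degrades proteins tagged with ubiquitin. Its 20S core is a barrel: rings of alpha subunits guard the entrance, and rings of beta subunits enclose the chamber in which proteins are cut. The 19S particle caps the barrel. Its base carries a ring of Rpt ATPases that unfold the substrate and feed it into the core, and its lid of Rpn subunits removes the ubiquitin. The assembled particles hold most subunits in fixed proportion. In flies as in other animals the subunit genes are switched up together, through the transcription factor cap-n-collar (cnc), when proteasome activity is impaired. Drosophila also has additional gene copies for many subunits, several of which are known from the testis. The roles given below rest largely on work in yeast and mammals.

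Each array had been scaled to a common level, with a trimmed mean of 500.1 in all 4. Around that level the arrays differed in spread. The median probe set intensity was 213 and 181 in the Gad1-negative samples, against 248 and 219 in the Cha-negative samples. A floor of 44.9, below which 20% of all values lie, replaced lower intensities. Between 15.8% and 24.3% of probe sets lay under it, with the largest share in Gad1-negative b. The ratio of 3' to 5' signal of the GAPDH control probe sets, a measure of how complete the labelled RNA was, read 23.9 and 38.04 in the Gad1-negative samples, against at least 144 (5' signal under the floor) and 185 in the Cha-negative samples. The same ratio of the actin controls overlapped between the sorts, at 82.05 and 106 in the Gad1-negative samples and 59.4 and 124 in the Cha-negative samples, lowest in Cha-negative a. That of the eIF-4a controls was 229.8 and 77.1 in the Gad1-negative samples, against at least 321 and at least 935 in the Cha-negative samples, whose 5' signals lay under the floor. Gad1 read 25.3 and 18.9 in Gad1-negative a and b, against 33.4 and 29.6 in Cha-negative a and b, under the floor in all 4 samples. ChAT, the acetylcholine-synthesising enzyme that cholinergic neurons use, read 590.1 and 781 in Gad1-negative a and b, against 2000.0 and 595 in Cha-negative a and b, so that the groups overlapped.

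All 26 canonical subunits, each read through its strongest probe set, gave signal above the floor in all 4 samples. Of all probe sets that name 1 gene, weaker ones of the same gene included, 64.2% did so. The further probe sets of Prosalpha7 and Prosbeta6 (below) did not. Gad1-negative b gave the highest of the 4 intensities for 20 of the 26 subunits, where 24.4% of the 6994 genes tested had their highest value in that sample. Cha-negative a gave the lowest for 16 of the 26, against 26.1% of all genes. No canonical subunit was lowest in Gad1-negative b, where 35.2% of all genes were lowest, and none was highest in Cha-negative a, where 28.7% of all genes were highest. Gad1-negative b, the array with the lowest median intensity and the largest share of probe sets under the floor, was still the highest for 19 of the 26 subunits after quantile normalization, which gives all arrays the same distribution, and for 20 after cyclic loess. All genes then had their highest value in that sample in 27.0% and 31.5% of cases.

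The spread between replicates shows the size of this. In the Gad1-negative group, 23 of 26 subunits read higher in b than in a, with a median ratio of 2.07, and 13 of the 26 differed by more than 2-fold. Over all genes tested 44.2% read higher in Gad1-negative b than in a, with a median ratio of 0.895, and 36.1% differed by more than 2-fold. In the Cha-negative group 23 of 26 subunits again read higher in b than in a, with a median ratio of 1.52, and 5 of the 26 differed by more than 2-fold. Over all genes 49.6% read higher in Cha-negative b, with a median ratio of 0.997, and 29.5% differed by more than 2-fold, a larger share than the 19.2% of the subunits. The sorts were compared between means of 2 samples and not between single samples, so that the measures are unlike. The median of Gad1-negative minus Cha-negative over the 26 subunits was 0.41 on the log2 scale, a ratio of 1.33, and the median over all genes tested was -0.04. In sample pairs, the median difference of the 26 was 1.29 for Gad1-negative b minus Cha-negative a, with 25 of 26 higher. For Gad1-negative a minus Cha-negative b it was -0.34, with 8 of 26 higher. The other pairs lay between. Gad1-negative b minus Cha-negative b gave 0.68, with 22 of 26 higher, and Gad1-negative a minus Cha-negative a gave 0.26, with 18 of 26 higher.

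**Figure D1:**
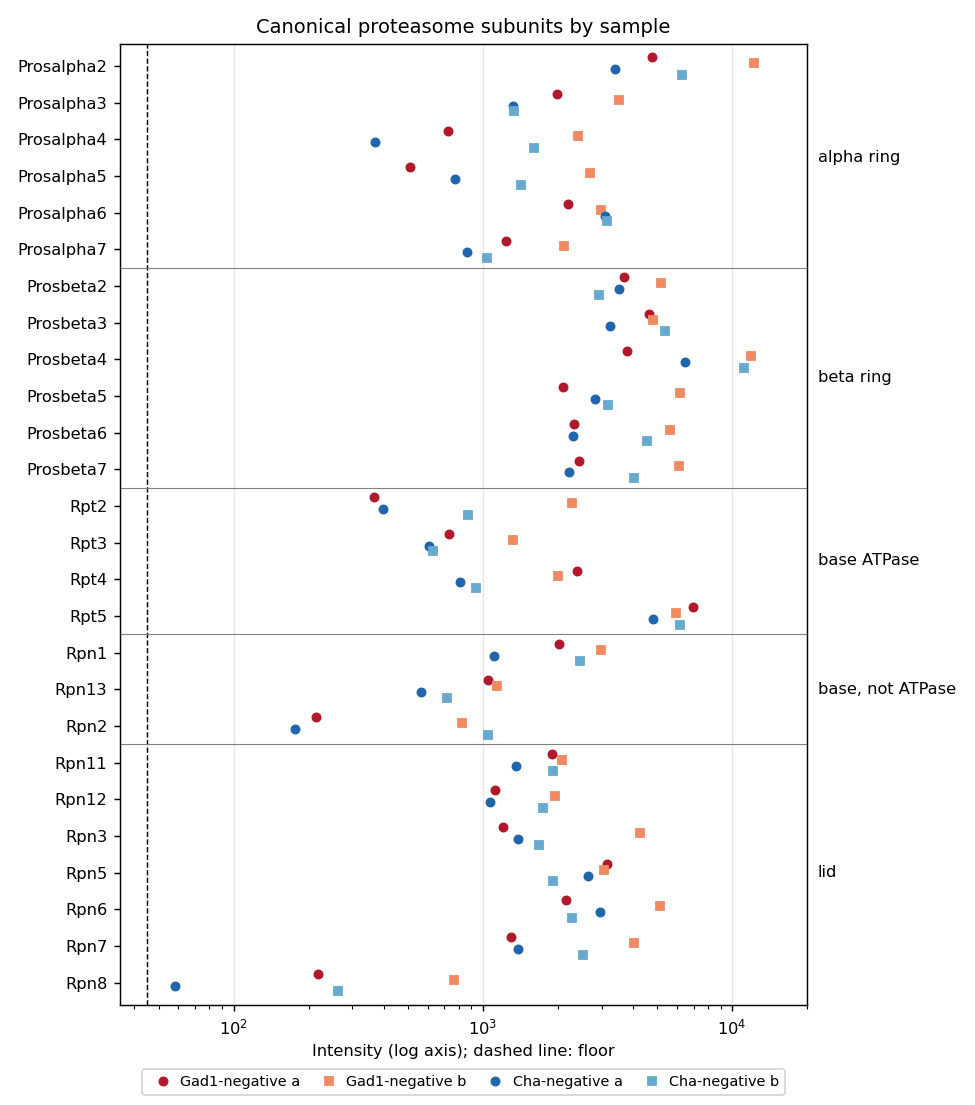
Intensity (log axis) of the 26 canonical subunits, by role, in Gad1-negative a and b and in Cha-negative a and b, 1 point for each sample; the dashed line is the floor of 44.9. Gad1-negative b is the rightmost point for 20 of 26 subunits and Cha-negative a the leftmost for 16.

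The sorts were compared gene by gene with limma across all 6994 genes above the intensity filter, with Benjamini-Hochberg adjustment over all of them. None of the 26 canonical subunits and neither of the 2 paralogs tested passed at an adjusted p of 0.05, and 0.0% of all genes did. At an unadjusted p under 0.05 there was 1 proteasome gene of 28, Rpt4, against 4.93% of all genes tested (345 genes). A positive difference, higher in Gad1-negative, was found in 23 of 26 canonical subunits, against 47.7% of all genes. That count rests on single samples: it was 13 of 26 without Gad1-negative b (median -0.02) and 15 of 26 without Cha-negative a (median 0.06), but 25 of 26 without Gad1-negative a (median 1.01) or without Cha-negative b (median 0.70). Groups that lie apart with both Gad1-negative samples on top were found in 7 of the 26 canonical subunits, against 14.7% of all genes tested. In 1 of the 26, against 20.1% of all genes, they lay apart with both Gad1-negative samples below. The median 95% interval of a subunit reached 1.43 to either side of its difference, a 2.69-fold change. With 2 samples on each side, the lowest two-sided p that an exact permutation test allows is 0.333.

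The alpha ring was measured through 6 subunits, of which 5 had a positive and 1 a negative difference. Their median was 0.75. Prosalpha3, a neighbour of Prosalpha2 and Prosalpha4 in the ring whose N-terminal tail helps to close the gate, read 1992 and 3509 in Gad1-negative a and b, against 1326 and 1328 in Cha-negative a and b. Both Gad1-negative samples lay above both Cha-negative samples, which read nearly the same, and the difference was 0.99 ± 0.55 (SE of the limma fit, adjusted p = 0.925). Prosalpha7 read 1242 and 2118 in Gad1-negative a and b, against 867 and 1041 in Cha-negative a and b, again without overlap between the groups (0.77 ± 0.55). Prosalpha6 was the exception to the direction, at 2201 and 2972 in Gad1-negative a and b, against 3099 and 3136 in Cha-negative a and b. Here both Gad1-negative samples lay below both Cha-negative samples (-0.29 ± 0.54, interval -1.53 to 0.96).

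The other 3 alpha subunits had groups that overlapped. Prosalpha2 read 4782 and 12231 in Gad1-negative a and b, against 3384 and 6318 in Cha-negative a and b. Its highest value was in Gad1-negative b, Gad1-negative a lay between the Cha-negative samples, and the difference was 0.73 ± 0.70. Prosalpha4, of which paralogs exist (below), read 726 and 2416 in Gad1-negative a and b, against 369 and 1607 in Cha-negative a and b; both b samples were high and both a samples low, and the difference was 0.78 ± 0.86, but -0.085 without Gad1-negative b and -0.28 without Cha-negative a. Prosalpha5 read 510.2 and 2683 in Gad1-negative a and b, against 772 and 1424 in Cha-negative a and b, a ratio of 5.26 between the Gad1-negative replicates. Its difference was 0.16 ± 0.83, with an interval from -1.76 to 2.07, and it ran from -1.04 to 1.36 when 1 sample was left out.

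The beta ring was also measured through 6 subunits, with 5 positive differences, 1 negative and a median of 0.22. Prosbeta5 carries the chymotrypsin-like active site, the one that proteasome inhibitors mainly block. It read 2094 and 6195 in Gad1-negative a and b, against 2822 and 3182 in Cha-negative a and b, so that Gad1-negative a was the lowest and Gad1-negative b the highest of the 4, and the groups overlapped (0.27 ± 0.66, interval -1.28 to 1.81). Prosbeta2, with the trypsin-like site, read 3689.5 and 5192 in Gad1-negative a and b, against 3521 and 2925 in Cha-negative a and b. It was the only beta subunit whose groups did not overlap, and the difference was 0.45 ± 0.55, with an interval from -0.84 to 1.73 (limma adjusted p = 0.931).

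The 4 beta subunits without an active site had groups that overlapped. Prosbeta4 read 3791 and 11891 in Gad1-negative a and b, against 6443 and 11199 in Cha-negative a and b. Both b samples were high and the lowest value was Gad1-negative a, which gave a difference of -0.34 ± 0.74, the only negative one of the ring, and 0.49 without Gad1-negative a. Prosbeta6 read 2315 and 5626 in Gad1-negative a and b, against 2309.5 and 4552 in Cha-negative a and b. Prosbeta7 read 2423 and 6138 in Gad1-negative a and b, against 2212 and 4031 in Cha-negative a and b. In both genes the a samples of the sorts lay close together and the b samples above them, with differences of 0.15 ± 0.67 and 0.37 ± 0.67. Prosbeta3 varied little between the Gad1-negative samples, at 4641 and 4804 in Gad1-negative a and b, against 3227 and 5364 in Cha-negative a and b; the Cha-negative samples lay on either side (0.18 ± 0.57).

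The Rpt ATPases of the 19S base differed positively in 4 of 4 cases, with a median of 0.65. Rpt4 had the lowest p of all proteasome genes and a ratio between the sorts of 2.50. It read 2379 and 2004 in Gad1-negative a and b, against 809 and 941 in Cha-negative a and b. Both Gad1-negative samples were more than 2-fold above both Cha-negative samples. The replicates lay within 1.19-fold of each other in Gad1-negative and 1.16-fold in Cha-negative. The difference was 1.32 ± 0.52, with an interval from 0.12 to 2.52 (limma adjusted p = 0.925), and with any 1 sample left out it ran from 1.20 to 1.45.

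Rpt3 was the other ATPase whose groups lay apart, at 732 and 1322 in Gad1-negative a and b, against 610.3 and 634 in Cha-negative a and b (0.66 ± 0.56, interval -0.63 to 1.95). Rpt2, which in yeast helps to open the gate of the core, read 365 and 2273 in Gad1-negative a and b, against 397 and 869 in Cha-negative a and b. Gad1-negative b alone was high, 6.23-fold above Gad1-negative a, and the difference of 0.63 ± 0.89 was -0.69 without Gad1-negative b. Rpt5 read 6955 and 5953 in Gad1-negative a and b, against 4833 and 6193 in Cha-negative a and b; the 4 values lay within 1.44-fold of each other, and the difference was 0.23 ± 0.57.

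Of the base subunits that are not ATPases, Rpn1, Rpn2 and Rpn13 were measured. Rpn13, a receptor for ubiquitin chains, read 1053 and 1139.8 in Gad1-negative a and b, against 567 and 718 in Cha-negative a and b, with the groups apart and close replicates (0.78 ± 0.52, interval -0.42 to 1.98, limma adjusted p = 0.925). Rpn1, the docking site for shuttle proteins that bring in ubiquitinated substrates, read 2024 and 2991 in Gad1-negative a and b, against 1104 and 2464 in Cha-negative a and b, with Cha-negative a alone low (0.58 ± 0.61). Rpn2, the scaffold to which Rpn13 binds, read 214 and 824 in Gad1-negative a and b, against 176 and 1046 in Cha-negative a and b. Both a samples were low and both b samples high, by 3.85-fold in Gad1-negative and 5.95-fold in Cha-negative. Its difference of -0.03 ± 0.98, with an interval from -2.31 to 2.25, was positive after quantile normalization, median centring or cyclic loess (0.11, 0.21 and 0.087).

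The difference was positive for all 7 Rpn lid subunits measured, their median being 0.36, though only 3 of 7 kept one without Gad1-negative b. Sem1, a small lid subunit outside the name rule, was counted with the assembly factors below. It read 1007 and 4302 in Gad1-negative a and b, against 2922 and 2153 in Cha-negative a and b (-0.27 ± 0.75). Rpn11, the metalloprotease that cuts ubiquitin off the substrate, read 1899 and 2079 in Gad1-negative a and b, against 1358 and 1906 in Cha-negative a and b, within 1.53-fold over all 4 samples (0.30 ± 0.53). Rpn8, its partner in the lid, had the largest difference of all proteasome genes and one of the widest intervals. It read 218 and 766 in Gad1-negative a and b, against 58.1 and 262 in Cha-negative a and b; Cha-negative a was only just above the floor, the groups overlapped, and the difference was 1.73 ± 0.97, with an interval from -0.52 to 3.97 (limma adjusted p = 0.925). Without Gad1-negative b the Rpn8 difference was 0.82 and without Cha-negative a it was 0.64.

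The remaining 5 Rpn lid subunits are structural members that hold the lid together. Rpn5 was the only 1 of the 7 with the groups apart, at 3161 and 3055 in Gad1-negative a and b, against 2631 and 1914 in Cha-negative a and b (0.47 ± 0.54). Rpn3 read 1207 and 4265 in Gad1-negative a and b, against 1386 and 1687 in Cha-negative a and b. Rpn6 read 2165 and 5132 in Gad1-negative a and b, against 2952 and 2289 in Cha-negative a and b. Rpn7 read 1298 and 4029 in Gad1-negative a and b, against 1381 and 2517 in Cha-negative a and b. In these 3 genes Gad1-negative a was the lowest sample and Gad1-negative b the highest, with differences of 0.57 ± 0.70, 0.36 ± 0.62 and 0.29 ± 0.70. Each of the 3 differences was negative without Gad1-negative b (-0.34, -0.26 and -0.52). Rpn12 read 1123 and 1951 in Gad1-negative a and b, against 1065 and 1740.4 in Cha-negative a and b, with both b samples above both a samples (0.12 ± 0.58).

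**Figure D2:**
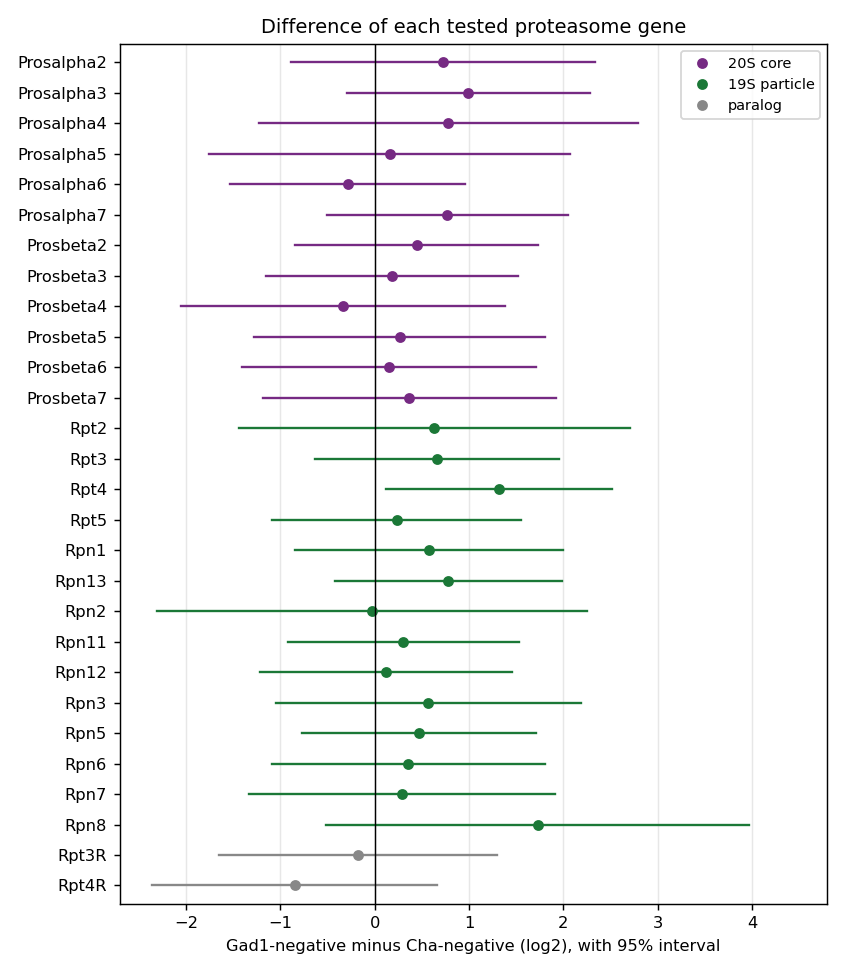
Difference of each tested proteasome gene, Gad1-negative minus Cha-negative (log2, x axis), with the 95% interval of the limma fit (2 samples a group); colours mark 20S core, 19S particle and paralogs. The interval of Rpt4 (0.12 to 2.52) is the only one that does not include 0 before adjustment.

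The 20S core and the 19S particle put the 4 samples in the same order, lowest in Cha-negative a and highest in Gad1-negative b. Levels of different probe sets cannot be set against each other, so each gene was first expressed as its deviation from its own mean over the 4 samples. The median deviation of the 12 core genes was -0.42 and 0.81 in the Gad1-negative samples, against -0.51 and 0.20 in the Cha-negative samples, a before b in each. For the 14 genes of the 19S particle it was -0.07 and 0.66, against -0.49 and 0.08. Over all genes tested the same medians were 0.06 and -0.10, against 0.04 and 0.05. The core minus 19S gap was -0.35 and 0.15 in the Gad1-negative samples, against -0.01 and 0.12 in the Cha-negative samples.

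The difference between the sorts had a median of 0.32 for the core and 0.52 for the 19S particle, a gap of -0.20. The core minus 19S values of the Gad1-negative replicates lay further apart than this, on either side of those of the Cha-negative replicates. Without Gad1-negative a the gap was 0.082, with medians of 1.04 and 0.96. The core median was negative without Gad1-negative b (-0.19) and without Cha-negative a (-0.12), where that of the 19S particle was 0.24 and 0.25. Within the core, all 6 alpha and all 6 beta subunits read higher in Gad1-negative b than in Gad1-negative a, and within the 19S particle 11 of 14 did, the exceptions being Rpt4, Rpt5 and Rpn5. In the Cha-negative group 11 of 12 core and 12 of 14 subunits of the 19S particle read higher in b than in a, the exceptions being Prosbeta2, Rpn5 and Rpn6. Measured from the median of all genes tested, the core median lay 0.36 above and the 19S median 0.56 above. Median centring adds 0.245 to the difference of every gene and leaves these distances as they are. Under quantile normalization, however, they were 0.14 and 0.35, and under cyclic loess 0.19 and 0.39.

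**Figure D3:**
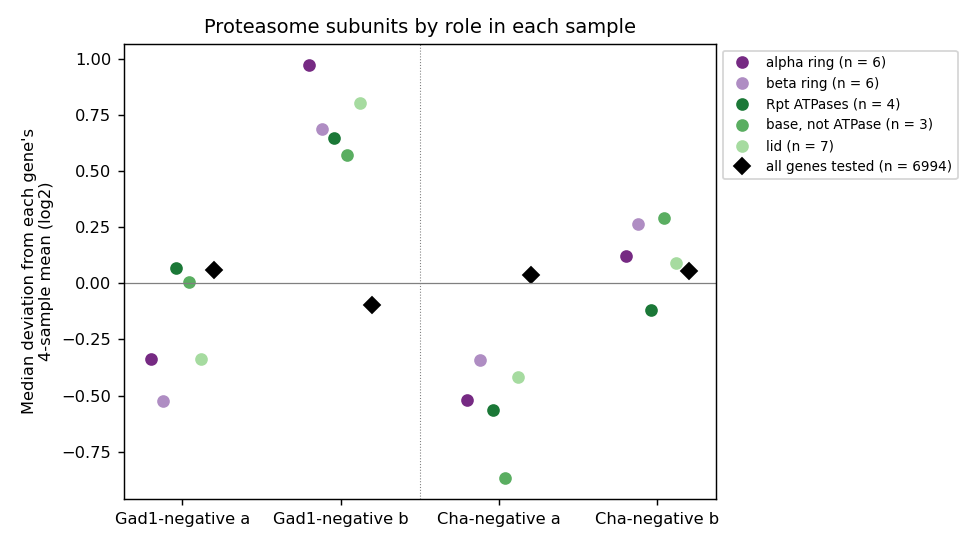
Median deviation of the genes of each role from their own 4-sample mean (log2, y axis) in each sample, with the same over all 6994 genes tested as black diamonds. All 5 roles lie above the diamond in Gad1-negative b (0.57 to 0.97) and below it in Cha-negative a (-0.87 to -0.34).

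Of the 13 paralogs, 11 lay under the floor in at least 1 sample. They include 2 that lay under the floor in all 4 samples, Prosbeta2R1 at 8.0 and 15.0 in the Gad1-negative samples and 23.0 and 17.0 in the Cha-negative samples, and Prosbeta4R2 at 9.3 and 24.2 in the Gad1-negative samples and 14.7 and 15.7 in the Cha-negative samples. Such a reading was found for 6.67% of probe sets that name 1 gene. Prosbeta4R2 has a close neighbour in the RefSeq annotation, Prosbeta4R1, with 1 gene between them. Prosbeta4R1 read 19.6 and 37.4 in the Gad1-negative samples and 68.7 and 38.9 in the Cha-negative samples, above the floor in Cha-negative a only. Only Rpt3R and Rpt4R lay above the floor in all 4 samples, and these were the only paralogs above the intensity filter. The other 11 were not tested.

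Rpt4R, a paralog of the ATPase Rpt4, read 203 and 149.6 in Gad1-negative a and b, against 366 and 269 in Cha-negative a and b. The groups lay apart in the direction opposite to that of Rpt4, at -0.85 ± 0.65 (interval -2.36 to 0.67, limma adjusted p = 0.925), and the difference ran from -1.07 to -0.63 with 1 sample left out. Rpt3R read 327 and 199 in Gad1-negative a and b, against 248 and 333 in Cha-negative a and b, with overlapping groups (-0.17 ± 0.64), and its difference was positive after quantile normalization, median centring or cyclic loess (0.050, 0.073 and 0.060). The difference between each paralog and its canonical gene was not tested.

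Among the 11 paralogs with a value above the floor in at least 1 sample, Cha-negative a was the highest for 7, against 32.4% of all genes with such a value. Under the floor lay 4 and 9 paralogs in the Gad1-negative samples, against 3 and 9 in the Cha-negative samples, with 9 in the b sample of each. Rpn13R read 73.0 and 35.5 in Gad1-negative a and b, against 371 and 20.4 in Cha-negative a and b, high in Cha-negative a alone. Prosalpha3T read 136 and 13.7 in Gad1-negative a and b, against 235 and 34.9 in Cha-negative a and b, with both a samples above the floor and both b samples under it. Prosalpha4T2 read 112 and 38.3 in Gad1-negative a and b, against 234 and 61.8 in Cha-negative a and b. Prosbeta2R2 read 59.6 and 73.3 in Gad1-negative a and b, against 252 and 43.3 in Cha-negative a and b. In both of these genes too the highest value was in Cha-negative a. The remaining 4 paralogs, Prosalpha4T1, Prosalpha6T, Prosbeta5R1 and Rpn12R, stayed between 11.6 and 185 in every sample. Of 7 testis genes, read as markers of the tissue in which several of these paralogs are known, the summed intensity was 1439.8 and 385 in the Gad1-negative samples, against 2399 and 1139 in the Cha-negative samples, highest in Cha-negative a as well. Of the 7, sa lay under the floor in all 4 samples and dj reached 860 in Cha-negative a alone. The markers aly, Mst87F and Mst84Da were also highest in Cha-negative a, whereas bam and can were highest in Gad1-negative a. The part of testis-type transcripts in the paralog values was not tested.

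**Figure D4:**
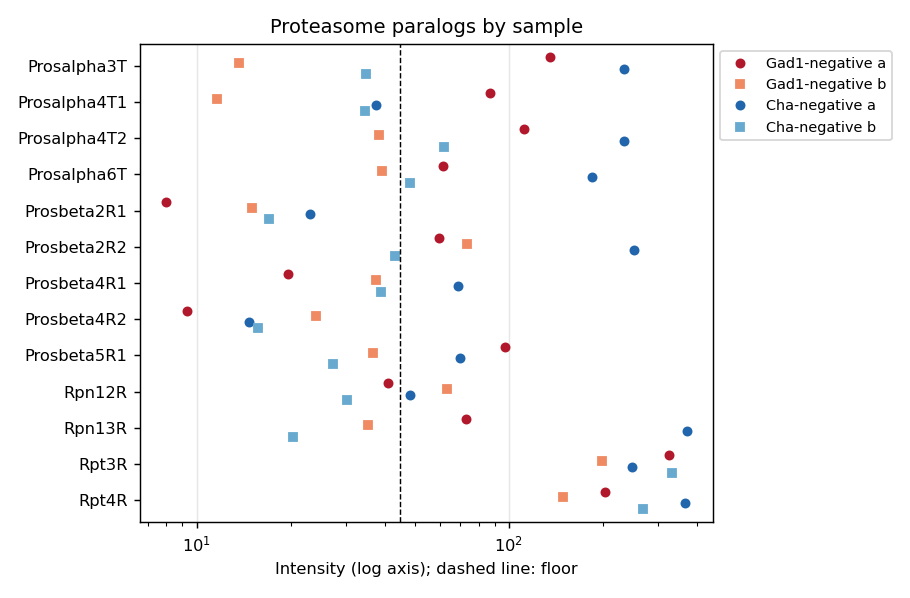
Intensity (log axis) of the 13 paralogs in Gad1-negative a and b and in Cha-negative a and b, 1 point for each sample; the dashed line is the floor of 44.9. Only Rpt3R and Rpt4R lie to the right of the floor in all 4 samples, and Cha-negative a is the rightmost point for 7 of the 11 that reach the floor in any sample.

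Prosalpha7 and Prosbeta6 each had a further probe set. For Prosalpha7 it read 32.6 and 23.5 in the Gad1-negative samples and 39.4 and 34.3 in the Cha-negative samples, under the floor throughout, so that it gives no order of the samples. For Prosbeta6 it read 28.8 and 100.8 in Gad1-negative a and b, against 22.4 and 66.2 in Cha-negative a and b. Both b samples lay above the floor, with Gad1-negative b the higher, as in the probe set used. Both a samples lay under it, so that their order is not given. The probe set whose annotation lists a pair of genes, both of the alpha1 subunit, was left out of the fit, since its signal cannot be assigned to either. It read 1362 and 1957 in the Gad1-negative samples and 3089 and 1628 in the Cha-negative samples, with its highest value in Cha-negative a.

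Genes that work with the proteasome were read from 8 lists with 61 entries, of which 51 matched genes on the array and 50 were tested. None passed at an adjusted p of 0.05 in limma, and 1 of 50 had an unadjusted p under 0.05. A positive difference was found in 37 of the 50, with a median of 0.33, against the 47.7% and the median of -0.04 over all genes. Unlike that of the subunits, this count was not repeated with 1 sample left out. Among 7 assembly factors and activators, with Sem1 counted among them, 5 were positive (median 0.33). Uch-L5, a ubiquitin protease of the 19S particle, read 364 and 813 in Gad1-negative a and b, against 325 and 196 in Cha-negative a and b (1.11 ± 0.65). PI31, which binds the proteasome and was first known as an inhibitor, read 766 and 1267 in Gad1-negative a and b, against 165 and 855 in Cha-negative a and b; Cha-negative a alone was low, and the difference was 1.39 ± 0.82. Among 4 genes of transcriptional control 3 were positive (median 0.36). The regulator cnc read 754 and 339 in Gad1-negative a and b, against 317 and 443 in Cha-negative a and b (0.43 ± 0.62), with the highest value in Gad1-negative a. Its partner maf-S read 727 and 2418 in Gad1-negative a and b, against 903 and 707 in Cha-negative a and b (0.73 ± 0.68). Keap1, which restrains cnc, read 1111 and 853 in Gad1-negative a and b, against 1733 and 1031 in Cha-negative a and b (-0.46 ± 0.55). The part of these regulators in the subunit values was not tested.

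Of 5 shuttles and segregase genes 4 were positive (median 0.66). Rad23, a shuttle for ubiquitinated proteins, was the negative one, at 2725 and 3106 in Gad1-negative a and b, against 4664 and 5042 in Cha-negative a and b, with the groups apart (-0.74 ± 0.54). The segregase cofactor p47 read 586 and 1059 in Gad1-negative a and b, against 549.7 and 445 in Cha-negative a and b (0.67 ± 0.56). The 4 genes that encode ubiquitin itself had a median of 0.30, with 3 positive. Ubi-p5E, a polyubiquitin gene, differed by 0.59 ± 0.62 and RpS27A, a fusion of ubiquitin with a ribosomal protein, by 0.54 ± 0.78. RpS27A read 19796 and 20406 in Gad1-negative a and b, against 7398 and 25918 in Cha-negative a and b, with Cha-negative a alone low. All 5 ubiquitin-conjugating E2 genes tested were positive (median 0.75), with Ubc7 at 0.98 ± 0.67 and Ubc2 at 0.75 ± 0.52. Of 10 E3 ligase genes 8 were positive (median 0.16), with the scaffolds Cul2 at 1.03 ± 0.68 and Cul3 at 0.60 ± 0.54.

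Of 7 deubiquitinases 4 were positive (median 0.07). Uch, a ubiquitin hydrolase, differed by 1.26 ± 0.62 and Usp8 by -0.98 ± 0.55. The COP9 signalosome, a relative of the 19S lid that removes the ubiquitin-like Nedd8 from cullins, had 5 of 8 positive genes and a median of 0.21. Its subunit CSN7 held the lowest p of the 8 lists, at 621 and 1352 in Gad1-negative a and b, against 89.4 and 147 in Cha-negative a and b (3.00 ± 0.66, limma adjusted p = 0.783). Both Gad1-negative samples were more than 4-fold above both Cha-negative samples, while the other 7 signalosome genes differed by -0.67 to 0.96.

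Marker genes of other cell types followed several patterns. Of the markers tested, 5 of 5 for neuroblasts (median 0.85), 5 of 6 for haemocytes (0.59) and 3 of 4 for muscle (1.27) had a positive difference. So did 2 of 4 for glia (-0.06), 1 of 2 for neurons (-0.47) and 1 of 1 for fat body (0.01). For germ line it was 0 of 3 (-0.99) and for testis 0 of 2 (-0.92), against 47.7% of all genes. The sums below are of intensities, so the strongest marker weighs most. The sum of 4 muscle markers was 4833 and 8878 in Gad1-negative a and b, against 2621 and 1534 in Cha-negative a and b. It was highest in Gad1-negative b, as were most proteasome subunits, but lowest in Cha-negative b. Most of it was Mlc2, at 4098 and 7432 in Gad1-negative a and b, against 2044 and 1116 in Cha-negative a and b. The marker up overlapped between the groups and was lowest in Gad1-negative a. The sum of 4 neuron markers was 626 and 1603 in the Gad1-negative samples and 1176 and 1142 in the Cha-negative samples. Its highest value was in Gad1-negative b, as for the subunits, but the 4 markers differed: Appl and brp lay lower in both Gad1-negative than in both Cha-negative samples, nSyb lay higher, and elav overlapped. Under the floor lay nSyb in both Cha-negative samples and brp in Gad1-negative a, and neither gene was tested. The sums of the 6 haemocyte markers were 3795 and 6027 in the Gad1-negative samples, against 5247 and 1469 in the Cha-negative samples. They were highest in Gad1-negative b and lowest in Cha-negative b, but the markers differed. SPARC, vkg and Col4a1 were each highest in Gad1-negative b, whereas Hml and crq were lowest there and srp was highest in Gad1-negative a. The sums of the 5 neuroblast markers were 6419 and 3664 in the Gad1-negative samples, against 2596 and 2616 in the Cha-negative samples. They were highest in Gad1-negative a and lowest in Cha-negative a. Of the sum in Gad1-negative a, mira gave 4094, and pros was highest in Cha-negative b (886). The 4 glial markers summed to 1955 and 1635 in the Gad1-negative samples and 1209 and 1942 in the Cha-negative samples, highest in Gad1-negative a and lowest in Cha-negative a. Of the 4, only nrv2 was highest in Gad1-negative a (1069). The highest value of repo was in Cha-negative a, that of Gs2 in Gad1-negative b and that of moody in Cha-negative b. Fat body markers, 2 in number, summed to 384.0 and 207 in the Gad1-negative samples, against 502 and 219.0 in the Cha-negative samples, highest in Cha-negative a. There Lsp2 was highest (377), whereas Fbp1 was highest in Gad1-negative a (176). The 3 germ line markers summed to 1745 and 305 in the Gad1-negative samples, against 2307 and 1844 in the Cha-negative samples, lowest in Gad1-negative b. Each of the 3 was lowest there. Of the sums, nanos gave 1298.5 and 136 in Gad1-negative a and b, against 1657.5 and 1375 in Cha-negative a and b. The part of cell composition and of RNA quality in the proteasome values was not tested.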

How the data were processed

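Each sample has 1 deposited intensity per probe set, not on a log scale; the authors had scaled the arrays to equal 2%-trimmed means, as the deposited columns show, and the software is not given in the sources used here. Columns were matched to samples by identifier and grouped by title. Of 14010 probe sets, 44 were controls, 12444 named 1 gene, 327 named several and 1195 named none. Gene names came from the platform annotation table and were checked by Entrez identifier against RefSeq. Coordinates are left out, since no genome build is stated.

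Values were floored at the 20th percentile (44.9) and taken to log2, with no further normalization. The probe set with the highest mean stood for each of 10845 genes, and 6994 genes whose mean reached the 40th percentile of probe sets (log2 7.05) were tested with limma (3.58.1, under R 4.3.3; lmFit, then trended eBayes with 2 residual degrees of freedom, two-sided p-values adjusted by Benjamini-Hochberg over all genes tested), without a term for the replicate letter. Tables were made with pandas 2.3.3 and numpy 2.4.6 in Python 3.11.15, figures with matplotlib 3.10.9. The code was tested on simulated data. The number of arrays limits the precision, and no depth applies.

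Every member is named. From each list of pathway genes the text names those with an unadjusted p under 0.05 or, where there is none, the 2 with the lowest p. Named after their values were seen were cnc, Sem1, the testis genes and the single neuron, muscle, haemocyte, glial, neuroblast, fat body and germ line markers. The members and lists were chosen with earlier results of these data known. The settings tried besides were cyclic loess, median centring and quantile normalization, floors at the 10th and 30th percentiles, averaging probe sets of a gene, an untrended eBayes, a filter at the 60th percentile or none, the replicate letter as a block and leaving out each sample. A fit of all single-gene probe sets and the count of highest samples under other settings were added after the data were seen.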

Additional observations from a re-analysis of the deposited data

How the results depend on the processing

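No gene passed an adjusted p of 0.05 under any of the 11 other settings or with any of the 4 samples left out; the lowest adjusted p of a proteasome gene over all of these was 0.525. At an unadjusted p under 0.05, 1 proteasome gene of 28 became 2 of 39 with no intensity filter (Rpt4 and Rpn13) and 0 of 28 with eBayes without trend. With the replicate letter as a replicate block there were 2 (Rpt4 and Rpn8), and 602 of all genes, against 345 without it; the labels do not say that a letter marks a shared culture or day, and over all genes the a minus b differences of the sorts had r = 0.251, and over the 26 canonical subunits r = 0.537, both across genes, which are not independent. Over all genes the count at an unadjusted p under 0.05 was 718 of 10845 with no filter, against 345 of 6994, so that the number tested differs too. With 1 sample left out, where the lone sample of a group is assumed to vary like the others, the core median ranged from -0.19 to 1.04, that of the 19S particle from 0.24 to 0.96 and the core minus 19S gap from -0.43 to 0.082. The count of canonical subunits highest in Gad1-negative b ran from 19 to 24 of 26 under the settings that change the values or leave out another sample. The other settings moved 87 of 305 gene values at all, and 81 of the 87 kept their sign. The 6 that did not are Rpn2 and Rpt3R under quantile normalization (0.11 and 0.050), median centring (0.21 and 0.073, by the shift of 0.245 common to all genes) and cyclic loess (0.087 and 0.060). With 1 sample left out, 15 of 28 genes changed sign: Prosalpha4 -0.28 to 1.84, Prosalpha5 -1.04 to 1.36, Prosbeta3 -0.18 to 0.55, Prosbeta4 -1.16 to 0.49, Prosbeta5 -0.52 to 1.05, Prosbeta6 -0.49 to 0.80, Prosbeta7 -0.30 to 1.04, Rpn1 -0.0018 to 1.16, Rpn12 -0.28 to 0.52, Rpn2 -1.32 to 1.26, Rpn3 -0.34 to 1.48, Rpn6 -0.26 to 0.98, Rpn7 -0.52 to 1.11, Rpt2 -0.69 to 1.95 and Rpt3R -0.53 to 0.19. The causes were not tested.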
